A study of Mus musculus with 6 samples.

Results

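The gp130 and STAT3 axis is described here in Tregs sorted from B16.F10 melanoma tumors, as 10 genes picked by name. They are the receptor chains *Il6st*, *Il6ra*, *Il27ra* and *Il21r*, the kinases *Jak1*, *Jak2* and *Tyk2*, the transcription factor *Stat3*, and the feedback inhibitors *Socs1* and *Socs3*. All 10 have a value among the 12153 genes of the deposited table. They were listed by their role in the pathway rather than by a threshold on a value, with earlier results of these data known. RNA-Seq was performed on 6 libraries, 3 of them from controls and 3 from *Nr3c1* Foxp3-Cre mice, to describe how loss of the glucocorticoid receptor (GR, encoded by *Nr3c1*) alters tumor-infiltrating Tregs. B16.F10 is a mouse melanoma line, and every tumor was taken at day 15 after inoculation. Floxed *Nr3c1* was the genotype of both groups. The *Nr3c1* Foxp3-Cre mice also carried Foxp3-YFP/Cre, so that Cre was driven by the *Foxp3* promoter. The animals' age was not given in the sources used here, and neither was whether tumors were pooled. The sample labels describe a sort on CD45, CD4 and CD25, while the study's methods describe a sort on CD45.2, CD4 and Foxp3-YFP after exclusion of other lineages. The labels name no YFP allele for the controls. A difference in sorting and the difference in genotype cannot be told apart.

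The protein gp130, encoded by *Il6st*, is the signal-transducing chain shared by the receptors for IL-6, IL-11, LIF, oncostatin M and IL-27. *Il6ra* and *Il27ra* encode chains that pair with gp130, whereas the IL-21 receptor encoded by *Il21r* pairs with the common γ chain and also signals through STAT3. Ligand binding activates JAK kinases, which phosphorylate STAT3, and SOCS3 and SOCS1 are induced as feedback inhibitors, SOCS3 by binding gp130 and SOCS1 by blocking JAK activity. In T cells IL-6 and STAT3 are known for promoting Th17 differentiation and for opposing induction of Foxp3.

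Values are log2 CPM (read counts scaled to library size) after quantile normalization by the authors, and a difference is the *Nr3c1* Foxp3-Cre mean less the control mean. In the limma fit 0.0576% of the genes tested had an adjusted p under 0.05 (0.00823% higher, 0.0494% lower), and 3.26% had an unadjusted p under 0.05 (1.61% higher, 1.65% lower). *Tsc22d3*, a gene induced by GR, fell by 1.56 (standard error 0.16, limma adjusted p = 0.0342), a call lost in 7 of 21 alternative fits (adjusted p up to 0.221), among them those without control 3 or without any 1 *Nr3c1* Foxp3-Cre library. *Nr3c1* was lower in each library than in any control, at a difference of -1.38 (standard error 0.21, limma adjusted p = 0.120). The T cell genes *Cd4* (8.69 to 9.32 in controls, 8.78 to 9.24 in *Nr3c1* Foxp3-Cre Tregs) and *Il2ra* (8.20 to 8.60 and 8.23 to 8.75) were present in each library. All 10 Treg markers had values, 3 higher and 7 lower on average, with a median difference of -0.033. None had an adjusted p under 0.05 with limma. Of the 10, 1 was lower in each *Nr3c1* Foxp3-Cre library than in any control, against 3.73% of all genes. *Foxp3*, the defining marker, was at 3.39 to 4.42 in controls and 3.50 to 4.47 in *Nr3c1* Foxp3-Cre Tregs. Of other cells' markers, 10 of 10 melanoma genes, 14 of 15 myeloid genes and 8 of 9 fibroblast and endothelial genes had values, against 2 of 6 CD8 T cell and NK cell genes, 1 of 5 B cell genes and 0 of 5 neutrophil genes. The melanoma genes summed to 4472 to 11964 CPM in controls and 5029 to 12206 CPM in *Nr3c1* Foxp3-Cre libraries. No source says that the replicates came from separate animals, so p-values measure the spread between these libraries, which may be technical, and in bulk RNA fewer cells of a type and less RNA per cell cannot be told apart.

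None of the 10 genes differed between the genotypes at an adjusted p under 0.05 with limma, where 0.0576% of all genes did, and for each of the 10 the adjusted p was 1.0. At an unadjusted p under 0.05 there was 1, *Il6st*, which was higher, against 1.61% of all genes that were higher and 1.65% that were lower at that threshold. The mean was higher in *Nr3c1* Foxp3-Cre Tregs for 8 of the 10, against 49.5% of all genes, and lower for *Il27ra* and *Il21r*. The median difference was 0.12 for the 10 genes and -0.0014 for all genes. The groups were without overlap for 1 of the 10, *Il6st*, as deposited, against 7.41% of all genes (3.69% higher, 3.73% lower), so the share of 1 in 10 is near that background. The range between the 3 controls exceeded the difference between genotypes for all 10.

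**Figure D1:**
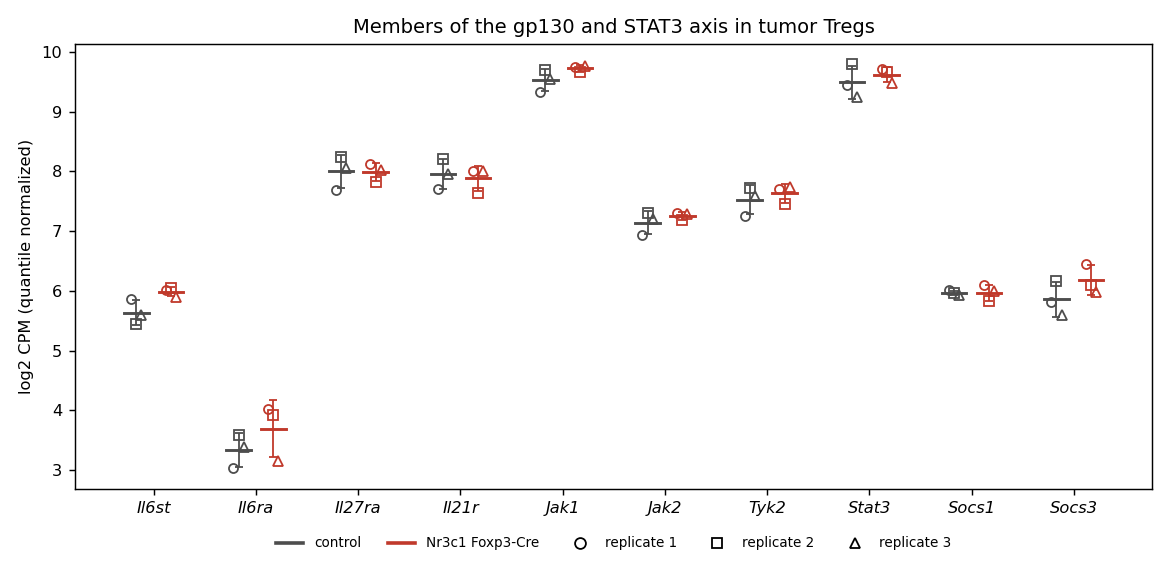
Level of each of the 10 genes in log2 CPM, quantile normalized. Symbols are single libraries by replicate, horizontal bars are the means of 3 libraries and vertical bars the SD. *Il6st* has groups that do not overlap, and the other 9 genes overlap.

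Among the receptors, *Il6st* had 1.28-fold more transcript in *Nr3c1* Foxp3-Cre Tregs on the linear scale (95% confidence interval 1.04 to 1.58), and the other chains did not separate. *Il6st* (ENSMUSG00000021756.12) lies on the plus strand at chr13:112464070-112510086 of mm10. It was at 5.86, 5.44 and 5.60 in controls 1, 2 and 3 and at 6.02, 6.04 and 5.91 in *Nr3c1* Foxp3-Cre libraries 1, 2 and 3. All 3 *Nr3c1* Foxp3-Cre values exceeded all 3 control values, with control 1 close below *Nr3c1* Foxp3-Cre library 3. The SD was 0.21 among controls and 0.073 among *Nr3c1* Foxp3-Cre libraries. The unadjusted p from limma was 0.0248, and an exact two-sided permutation test gave p = 0.1, the smallest that 3 libraries against 3 allow. The study singled out *Il6st* on these same libraries, so its direction is not independent evidence. Without control 2, the lowest library, the difference was 0.26, and without control 1 it was 0.47.

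*Il6ra* (chr3:89864059-89913196, minus strand) encodes the chain that binds IL-6 and brings it to gp130. It was at 3.03, 3.59 and 3.39 in controls and at 4.02, 3.91 and 3.14 in *Nr3c1* Foxp3-Cre libraries. Libraries 1 and 2 of the *Nr3c1* Foxp3-Cre group were above all controls, and library 3 was below 2 of the 3. The difference of 0.36 had a standard error of 0.28 and a 95% confidence interval of -0.28 to 0.99. Within each library, *Il6ra* less *Il6st* averaged -2.30 in either group, and the ranges overlapped.

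*Il27ra* (chr8:84030294-84042589, minus strand), whose protein pairs with gp130 to bind IL-27, was at 7.70, 8.25 and 8.06 in controls and 8.13, 7.83 and 8.02 in *Nr3c1* Foxp3-Cre libraries. The *Nr3c1* Foxp3-Cre values all lay within the control range, and the difference was -0.0053 (95% confidence interval -0.33 to 0.32). *Il21r* (chr7:125603429-125633570, plus strand), the IL-21-binding chain, was at 7.70, 8.20 and 7.95 in controls and 8.01, 7.64 and 8.01 in *Nr3c1* Foxp3-Cre libraries. Its lowest value was *Nr3c1* Foxp3-Cre library 2, and the difference was -0.070 (95% confidence interval -0.41 to 0.27). Both genes had a low value in control 1 and a high value in control 2. *Il6st* ran the opposite way among the controls. Within a library, *Il27ra* less *Il6st* differed between the genotypes by -0.36 and *Il21r* less *Il6st* by -0.43, with ranges that overlapped.

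*Jak1* (chr4:101152367-101265282, minus strand) encodes the kinase with the main part in gp130 signaling. It was at 9.33, 9.70 and 9.55 in controls and at 9.75, 9.66 and 9.77 in *Nr3c1* Foxp3-Cre libraries. The groups overlapped through control 2 alone, which was above *Nr3c1* Foxp3-Cre library 2. The difference was 0.20 (standard error 0.11, 95% confidence interval -0.057 to 0.46), just above the control SD of 0.19. *Jak2* (chr19:29251828-29313080, plus strand), a kinase that gp130 also binds, was at 6.93, 7.30 and 7.20 in controls and 7.30, 7.18 and 7.28 in *Nr3c1* Foxp3-Cre libraries. Apart from control 1, its 5 other libraries lay within the span from 7.18 to 7.30, and the difference was 0.11 (95% confidence interval -0.14 to 0.37). *Tyk2* (chr9:21104068-21131243, minus strand), the kinase first known from interferon and IL-12 receptors, was at 7.25, 7.73 and 7.59 in controls and 7.70, 7.46 and 7.75 in *Nr3c1* Foxp3-Cre libraries. Its groups overlapped as well, at a difference of 0.11 (95% confidence interval -0.20 to 0.42). Within each library, *Jak2* less *Jak1* was -2.40, -2.40 and -2.35 in controls and -2.46, -2.48 and -2.48 in *Nr3c1* Foxp3-Cre Tregs. These ratios did not overlap, though their means differed by only -0.088, and no test was run on them.

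*Stat3* (chr11:100885098-100939540, minus strand), the transcription factor on which these receptors converge, was at 9.44, 9.80 and 9.25 in controls and 9.72, 9.66 and 9.48 in *Nr3c1* Foxp3-Cre libraries. Control 2 was the highest and control 3 the lowest of the 6 libraries. The difference of 0.12 (95% confidence interval -0.20 to 0.45) was smaller than the control SD of 0.28. It was 0.00084 without control 3 and 0.27 without control 2, and 0.32 with sample quality weights.

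*Socs3* (chr11:117966079-117970047, minus strand), the inhibitor that binds gp130 itself, was at 5.82, 6.16 and 5.59 in controls and at 6.46, 6.10 and 5.98 in *Nr3c1* Foxp3-Cre libraries. *Nr3c1* Foxp3-Cre library 1 was above all others, whereas the remaining 2 were below control 2. The difference was 0.32 (standard error 0.18, 95% confidence interval -0.075 to 0.71), and it ranged from 0.18 to 0.47 when 1 library was left out in turn. *Socs1* (chr16:10782240-10785536, minus strand), which inhibits JAK activity downstream of many cytokines, was at 6.01, 5.96 and 5.94 in controls and 6.09, 5.83 and 5.99 in *Nr3c1* Foxp3-Cre libraries. Its controls were the closest to each other of the 10 genes, with an SD of 0.036, and the difference was 0.0021 (95% confidence interval -0.25 to 0.26). Within each library, *Socs3* less *Stat3* was -3.62, -3.63 and -3.66 in controls and -3.26, -3.56 and -3.51 in *Nr3c1* Foxp3-Cre Tregs. The *Nr3c1* Foxp3-Cre libraries all exceeded the controls in this ratio, by 0.19 on average. The ratio of *Socs3* to *Socs1* was higher by 0.32 and overlapped between the groups. Of the 7 ratios examined within libraries, these of *Jak2* to *Jak1* and *Socs3* to *Stat3* were the 2 without overlap. The share of such ratios over all genes was not computed, and some of the 7 have a gene in common.

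**Figure D2:**
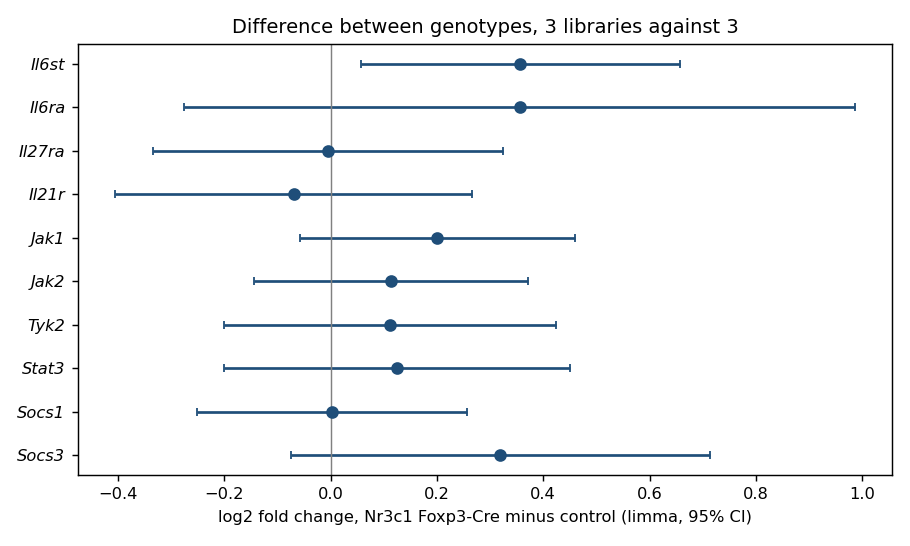
Difference between the genotypes on the log2 scale for each of the 10 genes, with the limma 95% confidence interval from 3 libraries against 3. The interval of *Il6st*, 0.056 to 0.66, lies above 0 before adjustment over all genes, and the other 9 intervals include 0.

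The promoter sequence of *Il6st*, the gene without overlap, is shown beside those of the feedback genes *Socs3* and *Socs1*, which are known targets of STAT factors. STAT dimers are known to bind the palindrome TTCNNNGAA. Each sequence is the 250 bases before the RefSeq start of the gene, in GRCm38.p6, 5′ to 3′ on the gene's strand, and capitals mark TTNNNNGAA on either strand, a looser form that includes every TTCNNNGAA. The windows are chr13:112463820-112464069 (plus strand) for *Il6st*, chr11:117969367-117969616 (minus strand) for *Socs3* and chr16:10785537-10785786 (minus strand) for *Socs1*.
Il6st: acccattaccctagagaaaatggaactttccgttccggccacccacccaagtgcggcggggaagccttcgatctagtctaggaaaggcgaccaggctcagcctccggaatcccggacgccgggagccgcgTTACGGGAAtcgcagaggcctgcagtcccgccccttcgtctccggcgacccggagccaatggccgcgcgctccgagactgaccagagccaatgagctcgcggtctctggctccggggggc
Socs3: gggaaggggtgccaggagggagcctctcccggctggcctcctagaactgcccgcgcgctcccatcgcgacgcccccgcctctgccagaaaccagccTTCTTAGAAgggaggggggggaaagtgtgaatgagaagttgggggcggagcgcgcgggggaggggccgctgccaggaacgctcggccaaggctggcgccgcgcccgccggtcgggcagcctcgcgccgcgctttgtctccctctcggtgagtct
Socs1: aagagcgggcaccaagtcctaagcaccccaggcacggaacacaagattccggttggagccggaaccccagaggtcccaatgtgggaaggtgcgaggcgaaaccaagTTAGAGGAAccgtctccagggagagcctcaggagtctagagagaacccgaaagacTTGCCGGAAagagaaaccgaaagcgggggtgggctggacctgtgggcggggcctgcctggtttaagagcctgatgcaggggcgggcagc

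In the *Il6st* window the match was TTACGGGAA, from 120 to 112 bases before the start. The *Socs3* window held the full palindrome as TTCTTAGAA, from 154 to 146 bases before the start, and 77 of its bases lie in an exon of another GENCODE transcript of *Socs3*. The *Socs1* window held 2 looser matches, TTAGAGGAA and TTGCCGGAA. RefSeq promoters were found for 9 of the 10 genes, and *Il27ra* had no entry. The background was 32851 windows of this length, with 1 chromosome left out. Of the 9, *Socs3* was the 1 with TTCNNNGAA, held by 7.02% of these windows and by 5.92% of those of genes with a value here. The looser TTNNNNGAA was in 7 of the 9, against 34.2% of these windows and 27% of those of genes with a value. The palindromic GR response element with its 3-base spacer was in 0 of the 9. It was in 0.387% of these windows and in 0.276% of those of genes with a value. These are letter matches and not measured binding.

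Compared per kb of the longest transcript, the levels kept the same order in both genotypes. In controls it ran from *Jak1* (7.23 log2 CPM per kb) over *Stat3* (6.90), *Il21r* (6.63), *Il27ra* (6.45), *Tyk2* (5.25), *Jak2* (4.81), *Socs3* (4.51), *Socs1* (4.43) and *Il6st* (2.52) to *Il6ra* (0.23). In *Nr3c1* Foxp3-Cre Tregs *Jak1* was at 7.43, *Il6st* at 2.87 and *Il6ra* at 0.58 log2 CPM per kb. The gp130 chain and the IL-6-binding chain were thus the lowest of the 10, far under the IL-21 and IL-27 receptor chains. Neighbours in this order whose ranges overlapped in controls were *Jak1* and *Stat3*, *Stat3* and *Il21r*, *Il21r* and *Il27ra*, *Jak2* and *Socs3*, and *Socs3* and *Socs1*. In *Nr3c1* Foxp3-Cre Tregs they were *Il21r* and *Il27ra*, and *Jak2* and *Socs3*. With the length of all exons combined, *Jak2* passed *Tyk2* in both groups, *Socs1* passed *Socs3* in controls, and *Il27ra* passed *Il21r* in *Nr3c1* Foxp3-Cre Tregs.

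Within the groups, an order of libraries recurred among the 10 genes. Control 1 was the lowest library for 5 of them, and the controls stood in the order 1, 3, 2 from low to high for 6, namely *Il6ra*, *Il27ra*, *Il21r*, *Jak1*, *Jak2* and *Tyk2*. The mean of the 10 Treg markers, at 8.13, 8.69 and 8.33 in controls 1, 2 and 3, stood in that order too. That of the further receptor chains described below, at 5.39, 5.30 and 5.21, did not. The order 1, 3, 2 was thus not particular to these 10 genes. Its share over all genes was not computed. The mean of the 10 melanoma markers was 8.39, 6.96 and 7.98 in controls 1, 2 and 3, the reverse of that order, and 7.85, 8.30 and 7.13 in *Nr3c1* Foxp3-Cre libraries. *Il6st* was the 1 gene of the 10 whose order of libraries was that of the melanoma markers in both groups. The melanoma mean itself hardly differed between the genotypes, and the median difference of its 10 markers was 0.015. As a covariate in limma it can therefore hardly move a difference between genotypes. In that fit the difference was 0.36 for *Il6st* (adjusted p = 0.613), 0.20 for *Jak1* and 0.32 for *Socs3*. Whether melanoma RNA contributed to these values was not tested by it. Over all alternative fits the adjusted p of *Il6st* was 0.107 to 1.0.

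**Figure D3:**
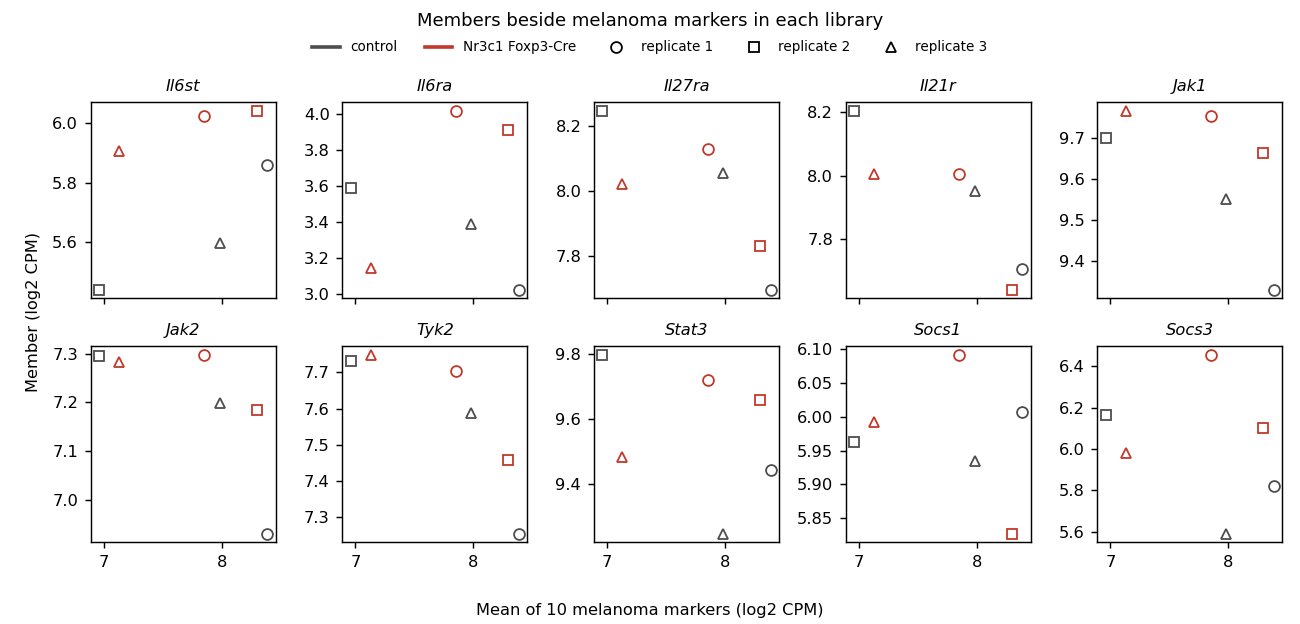
Level of each of the 10 genes (y axis, log2 CPM) against the mean of 10 melanoma markers in the same library (x axis, log2 CPM), for 3 control and 3 *Nr3c1* Foxp3-Cre libraries. Within each group *Il6st* orders the libraries as the markers do, while *Jak1* and *Tyk2* order them in reverse. *Il21r* is in reverse order in controls, but it is tied at 8.01 in *Nr3c1* Foxp3-Cre libraries 1 and 3.

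Of the 8 fibroblast and endothelial markers with values 7 were lower on average in *Nr3c1* Foxp3-Cre libraries. The sum of the 8 was 244 to 519 CPM in controls and 151 to 237 CPM in *Nr3c1* Foxp3-Cre libraries. None had an adjusted p under 0.05 with limma. At an unadjusted p under 0.05 there were 4, against 3.26% of all genes. They were the collagen genes *Col1a1*, *Col1a2* and *Col3a1* with a lower mean and the endothelial *Pecam1* with a higher one. *Col1a1*, named after its values were seen, had a difference of -1.87 and groups that did not overlap, and the abundant *Col3a1* was at -1.41 with groups that overlapped. The myeloid markers were lower for 12 of 14, with a summed level of 738 to 1025 CPM in controls and 653 to 1075 CPM in *Nr3c1* Foxp3-Cre libraries. The mean of 5 fibroblast markers was 4.67 to 5.71 in controls and 3.13 to 4.42 in *Nr3c1* Foxp3-Cre libraries, without overlap. A fit with this mean, an alternative added once the data had been seen, can therefore hardly separate it from genotype. In that fit the difference was 0.56 for *Il6st* and below 0 for the other 9 genes, among them *Socs3* at -0.12 and *Jak1* at -0.030. The mean of the myeloid markers was 4.53 to 4.99 in controls and 4.25 to 4.59 in *Nr3c1* Foxp3-Cre libraries. These ranges overlapped narrowly, so a fit with that mean can separate it from genotype only in part. With the myeloid mean as a covariate the difference was 0.60 for *Il6st*, -0.036 for *Jak1* and -0.076 for *Stat3*. When the libraries were centered on 6 T cell genes, also an added alternative, the groups of *Il6st* overlapped, at a difference of 0.38 and an unadjusted limma p of 0.111. With that centering the groups were without overlap for *Jak1* (0.22), *Jak2* (0.13) and *Tyk2* (0.13), each higher in *Nr3c1* Foxp3-Cre Tregs, as were 4.4% of all genes (2.35% lower). *Jak1* was then at 9.55, 9.53 and 9.48 in controls and 9.74, 9.78 and 9.69 in *Nr3c1* Foxp3-Cre libraries, and none of the 10 genes had an unadjusted p under 0.05.

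Among the further receptor chains, 10 of 12 had values, 3 higher and 7 lower, with a median difference of -0.12, and none passed an adjusted p of 0.05. *Il12rb2*, the IL-12 receptor chain that can also pair with gp130 for IL-35, was at 3.93, 4.38 and 3.32 in controls and 2.76, 2.29 and 3.31 in *Nr3c1* Foxp3-Cre libraries. These groups did not overlap, though control 3 and *Nr3c1* Foxp3-Cre library 3 nearly met, and the difference was -1.09 (standard error 0.34). *Il12rb2* was the 1 chain of the 10 without overlap, against 7.41% of all genes. *Il10ra*, the IL-10-binding chain, which also leads to STAT3, had a difference of -0.25, with groups that overlapped.

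Of the 12 ligands 5 had values. Without a value were, among 7 genes, *Il6*, *Il11*, *Il27* and *Il21*, whose products bind the receptors above. *Osm*, encoding oncostatin M, was at 4.61, 4.74 and 4.61 in controls and 5.01, 4.90 and 5.17 in *Nr3c1* Foxp3-Cre libraries. All 3 *Nr3c1* Foxp3-Cre values were above the controls, at a difference of 0.38 (standard error 0.14, limma adjusted p = 1.0). *Osm* was the 1 ligand of the 5 without overlap, against 7.41% of all genes. *Il10* (-0.39) and *Ebi3*, the subunit shared by IL-27 and IL-35 (-0.11), overlapped between the groups. Of the proteases that release the IL-6 receptor from the cell surface, *Adam17* had a difference of 0.16 and *Adam10* of -0.14.

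The 7 other JAK and STAT genes all had values, 5 higher and 2 lower, with a median difference of 0.084 and none past an adjusted p of 0.05. *Stat2*, which acts in interferon signaling, was at 6.52, 6.30 and 6.40 in controls and 6.57, 6.55 and 6.89 in *Nr3c1* Foxp3-Cre libraries. The groups did not overlap, at a difference of 0.27 (standard error 0.12), while *Stat6* (0.088) overlapped. *Stat2* was the 1 gene of these 7 without overlap, against 7.41% of all genes. Of 19 other inhibitors 18 had values, 9 higher and 9 lower, with a median of 0.012. *Pias1*, an inhibitor of STAT activity, was higher by 0.13 (limma unadjusted p = 0.197). It was the 1 gene of the 18 without overlap, against 7.41% of all genes. *Ptprc* (0.20), encoding the phosphatase CD45, and *Ptpn11* (-0.43), encoding SHP2, which binds gp130, overlapped.

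Genes that respond to STAT3 in T cells showed no common direction. Of 27 such genes 24 had values, 15 higher and 9 lower, with a median difference of 0.062, 0 at an adjusted p under 0.05 with limma and 1 at an unadjusted p under 0.05. That 1 was *Cebpb*, encoding a transcription factor of the acute phase response, at 6.74, 7.14 and 7.05 in controls and 6.56, 6.58 and 6.64 in *Nr3c1* Foxp3-Cre libraries. It was lower in each *Nr3c1* Foxp3-Cre library than in each control, by a difference of -0.38 (standard error 0.12). *Cebpb* was the 1 gene of the 24 without overlap, against 7.41% of all genes. *Irf4* (0.43) and *Junb* (0.22), encoding factors of T cell activation, were higher on average with groups that overlapped. Genes known to respond to tissue dissociation, *Junb* among them, were higher on average for 9 of 11, and their sum was 3866 to 5240 CPM in controls and 4806 to 5149 CPM in *Nr3c1* Foxp3-Cre libraries. Mitochondrially encoded genes summed to 2122 to 3182 CPM in controls and 2006 to 3068 CPM in *Nr3c1* Foxp3-Cre libraries. The part of either in these values was not tested.

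**Figure D4:**
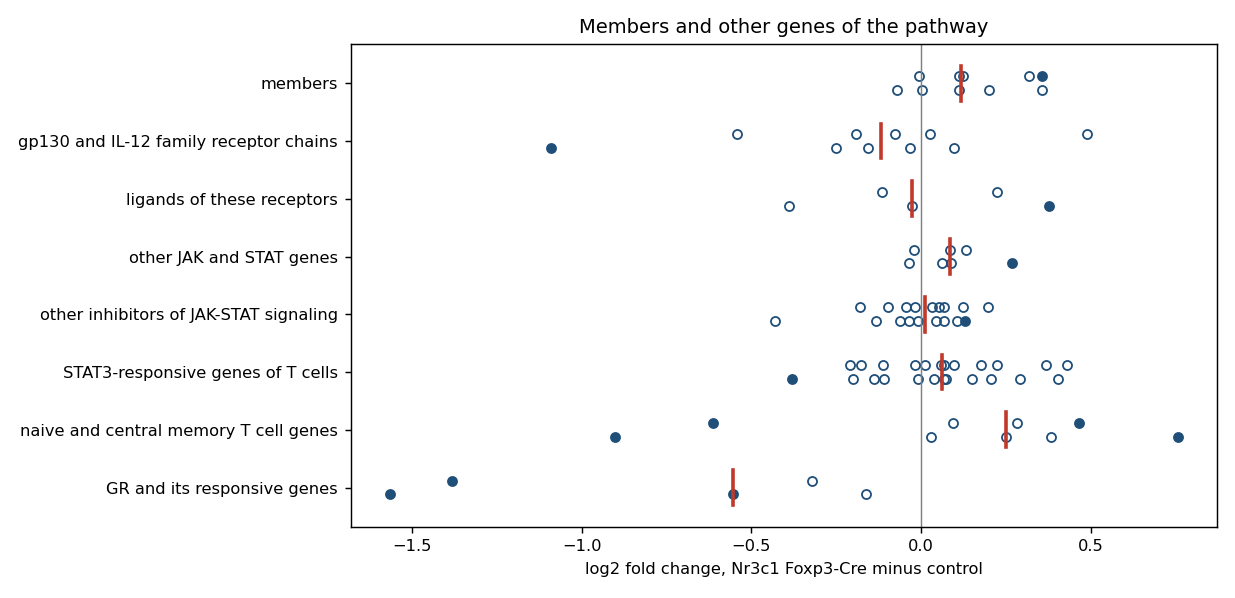
Difference between the genotypes on the log2 scale (x axis) for the 10 genes and for lists of related genes (y axis). Each point is 1 gene, filled where the 3 control and 3 *Nr3c1* Foxp3-Cre libraries do not overlap, and red bars are medians, which are 0.12 for the 10 genes, 0.062 for STAT3-responsive genes and -0.56 for GR and its responsive genes.

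Among 9 genes of naive and central memory T cells, in which gp130 and the IL-6 receptor are known to be more abundant than in effector cells, 7 were higher and 2 lower, with a median difference of 0.25. *Il7r*, the IL-7 receptor chain, and *Ccr7*, a receptor for homing to lymph nodes, had differences of -0.90 (standard error 0.28) and -0.61 (standard error 0.19), both without overlap. Of the 9, 2 were higher and 2 lower without overlap, against 7.41% of all genes. None of the 9 had an adjusted p under 0.05 with limma. At an unadjusted p under 0.05 there were 4, against 3.26% of all genes, among them *Il7r*, *Ccr7* and *Bach2* (0.76), a transcription factor of quiescent T cells.

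The genes whose values across the 6 libraries lay nearest to those of *Il6st* were *Fgd6*, *Timp3*, *Sntb1*, *Itpkc* and *Acbd3*. Likeness was the root mean square distance between values centered on each gene's mean, and it was 0.0591 for *Fgd6* and 0.0677 for *Acbd3* on the log2 scale. Of the other 9 genes of the axis the nearest was *Socs1*, at 0.229 and rank 2335, and the farthest *Il21r*, at 0.373 and rank 8364.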

How the data were processed

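RNA-Seq was analysed for 6 libraries grouped by the genotype in the sample labels, 3 control and 3 *Nr3c1* Foxp3-Cre. Reads were trimmed with Cutadapt, aligned with STAR to mm10 and quantified with RSEM on GENCODE M21, after which the authors removed genes of low CPM. The deposited values are log2 CPM that the authors quantile normalized, a step that gives all libraries one distribution. Depth is unknown, so no counting interval is given, and 3 libraries per group limit the precision.

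The fit of genotype to all 12153 genes used lmFit and trended eBayes from limma 3.58.1 (R 4.3.3), with Benjamini-Hochberg adjustment over all genes at 0.05. The study's voom weights need counts, which were not used here. The code was tested on simulated data. Single genes were compared with exact two-sided permutation tests in SciPy 1.17.1. Alternatives were other eBayes settings, weights, filters and normalizations, marker means as covariates, a replicate block, and fits without each library in turn.

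The genes and lists were chosen with earlier results of these data known. Named were the 10 genes, up to 3 genes per related list with the largest moderated statistic, *Nr3c1* and *Tsc22d3*, abundant markers, and the 5 genes most like *Il6st*. *Foxp3*, *Cd4*, *Il2ra*, *Col1a1*, *Col1a2* and *Bach2*, and the list members that have no value, were named outside this rule, the markers after their values were seen. Some genes that the rule names are not reported here. The looser promoter motif was also chosen after seeing the data. Positions came from GENCODE M21 and promoters from RefSeq.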

Additional observations from a re-analysis of the deposited data

How the results depend on the processing

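None of the 10 genes passed an adjusted p of 0.05 in any of the 21 alternative limma fits, of which 3 were chosen after seeing the data. The smallest adjusted p was 0.0687, for *Il21r* with the myeloid mean as a covariate. It was 0.451 for *Il21r* without the myeloid marker *Mpeg1* in that mean. The difference of *Il6st* stayed above 0, between 0.26 and 0.60, and its unadjusted p exceeded 0.05 without control 2, without control 3, without *Nr3c1* Foxp3-Cre library 1 or 2, and with T cell gene centering. *Tsc22d3* was lower in every fit, and its adjusted p was 0.000486 to 0.221, past 0.05 without a trend, with the replicate block, with the fibroblast mean, without control 3 and without any 1 of the *Nr3c1* Foxp3-Cre libraries.

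Signs turned for other genes. The fibroblast mean did not overlap between the genotypes, so a fit with it can hardly separate it from genotype. With it as a covariate the difference was -0.11 for *Il6ra*, -0.030 for *Jak1*, -0.13 for *Jak2*, -0.25 for *Tyk2*, -0.12 for *Stat3*, -0.13 for *Socs1* and -0.12 for *Socs3*. The myeloid mean overlapped only narrowly between the genotypes. With the myeloid mean the difference was -0.036 for *Jak1*, -0.12 for *Jak2*, -0.26 for *Tyk2*, -0.076 for *Stat3* and -0.086 for *Socs1*. Without *Mpeg1* in that mean it was -0.054 for *Tyk2* and -0.059 for *Socs1*. With T cell gene centering it was 0.014 for *Il27ra*. Without 1 library in turn it ranged from -0.16 to 0.12 for *Il27ra*, from -0.19 to 0.056 for *Il21r*, from -0.024 to 0.21 for *Tyk2* and from -0.058 to 0.074 for *Socs1*. It kept its sign for the others, at 0.19 to 0.63 for *Il6ra*, 0.10 to 0.29 for *Jak1*, 0.0072 to 0.19 for *Jak2*, 0.00084 to 0.27 for *Stat3* and 0.18 to 0.47 for *Socs3*. The unadjusted p was under 0.05 for *Jak1*, *Stat3* and *Socs3* without control 2, for *Il6ra* without *Nr3c1* Foxp3-Cre library 3, and for *Stat3* and *Socs3* with sample quality weights (0.32 and 0.54). It was also under 0.05, at differences below 0, for *Il21r* (-0.51) and *Il27ra* (-0.41) with the myeloid mean. The same held for *Il21r* (-0.52) and *Il27ra* (-0.46) with the fibroblast mean. Without *Mpeg1* in the myeloid mean it held for *Il21r* (-0.27) and not for *Il27ra* (-0.18).

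Over all genes the calls at an adjusted p under 0.05 were 1 higher and 6 lower. The counts were 0 and 0 without a trend (469 genes at an unadjusted p under 0.05), 7 and 12 with sample quality weights, 4 and 14 with the melanoma mean, 56 and 44 with the myeloid mean, and 0 and 1 with the fibroblast mean. Vooma weights gave 2 higher, T cell gene centering 3 lower, and the myeloid mean without *Mpeg1* 12 lower. Without 1 library in turn there were 0 to 3 higher and 0 to 5 lower: 3 and 5 without control 1, 2 and 4 without control 2, 0 and 1 without *Nr3c1* Foxp3-Cre library 1 or 3, and 0 in both directions without control 3 (290 at an unadjusted p under 0.05) and without *Nr3c1* Foxp3-Cre library 2 (373). At an unadjusted p under 0.05 there were 196 higher and 200 lower, and 1 of the 10 genes was higher. The cause was not tested.

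Deviations of same-numbered libraries correlated across genes at -0.117, -0.329 and -0.0246, which shows no pairing by number. The highest correlation, 0.365, was between control 1 and *Nr3c1* Foxp3-Cre library 2. With so few libraries, whose content of other cells' RNA varies, such correlations cannot exclude that same-numbered libraries were handled together. With the replicate block, 0 genes were higher and 0 lower, 275 had an unadjusted p under 0.05, and *Il6st* was at 0.36 with an adjusted p of 1.0.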
